A study of Homo sapiens with 24 samples.

Results

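The 12 arrays of plasmid-transfected HEK293T cells were compared over time, the 6 collected 24 h after transfection against the 6 collected 6 h after it. They are the 12 of the 24 arrays of the series whose sample titles name a pcDNA plasmid, and they were chosen by those titles without use of any measured value. At each time, 3 arrays are of cells given the empty vector pcDNA3.1 (CTRL pcDNA3.1) and 3 of cells given pcDNA3.1 carrying *FMR4* (FMR4 pcDNA3.1), a long non-coding RNA transcribed antisense to the fragile X gene *FMR1*. Both plasmids were delivered at 0.5 µg with Lipofectamine 2000CD, and the other 12 arrays are of cells given 40 nM CTRL siRNA or FMR4 siRNA with Lipofectamine RNAiMAX, again with 3 arrays per siRNA and time. All 18395 genes that the array annotation pairs with a single symbol were compared, each through its probe set of highest mean, with the plasmid kept as a covariate.

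HEK293T is a human embryonic kidney line that carries the SV40 large T antigen, a viral protein that binds p53. According to the study's methods the cells were plated and transfected on the same day. The earlier samples were thus also taken soon after plating. No untransfected culture and no further time were analysed here, and the response to the plasmid and its reagent, the recovery from plating, the growth of the culture and any handling that differed between the times cannot be told apart. The labels do not say whether the 3 arrays of a group came from separate cultures, so the p-values measure the spread between these arrays, which may be technical. No probe set carries the name *FMR4* in the annotation used, so the plasmid's own transcript was not measured. In bulk RNA, fewer cells of a kind and less RNA per cell cannot be told apart.

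Markers of the HEK293T lineage fixed for the comparison had a mean log2 level of 9.94 to 10.00 on the arrays of 6 h and 9.84 to 9.96 on those of 24 h. The olfactory receptor and keratin-associated protein genes, 409 in number and silent in most cells, had a mean of 5.39 to 5.48 on all 12 arrays, and the upper quartile of their levels, 6.0, was taken as the level of a gene not expressed. Markers of hepatocytes, blood, skeletal muscle, keratinocytes, fibroblasts and endothelium had list means between 5.59 and 6.67 at either time, and the markers of mature neurons between 7.63 and 7.82. The lowest correlation of any plasmid array with another was 0.995, over genes. The first principal component of the 12 arrays held 41.8% of the variance, and all 6 arrays of 6 h lay on its negative side and all 6 of 24 h on its positive side.

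Cells that are detached, replated and given fresh serum switch on immediate-early genes, whose products are transcription factors such as FOS, JUN and EGR1. Serum response factor (SRF) and YAP, which read actin tension and attachment, drive a second group of genes for cytoskeletal and matrix proteins. Much of this first programme is short-lived and is switched off again by the phosphatases and Sprouty proteins that it induces. As cells then use up their medium, other programmes are known to follow, among them the amino acid response driven by ATF4, the FOXO-driven genes of low insulin signalling and the genes of cholesterol and fatty acid synthesis. These programmes are given as background, and their part in the present data was not tested.

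Between 6 and 24 h, 2718 genes rose (14.8% of those tested) and 2350 fell (12.8%), so that 5068 genes or 27.6% were called at an adjusted p under 0.05 in limma's moderated test. Most of the changes were small. Of the called genes, 48 rose and 34 fell by at least 1.5-fold, and 5 rose and 5 fell by at least 2-fold. For 1381 of the called rises (7.51% of all genes) and 1272 of the called falls (6.91%), the 6 arrays of one time did not overlap the 6 of the other. The median difference over all genes was 0.02 on the log2 scale. The split of rises and falls depended on the scaling, since with each array centred on its own median 1878 genes rose and 3377 fell.

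**Figure D1:**
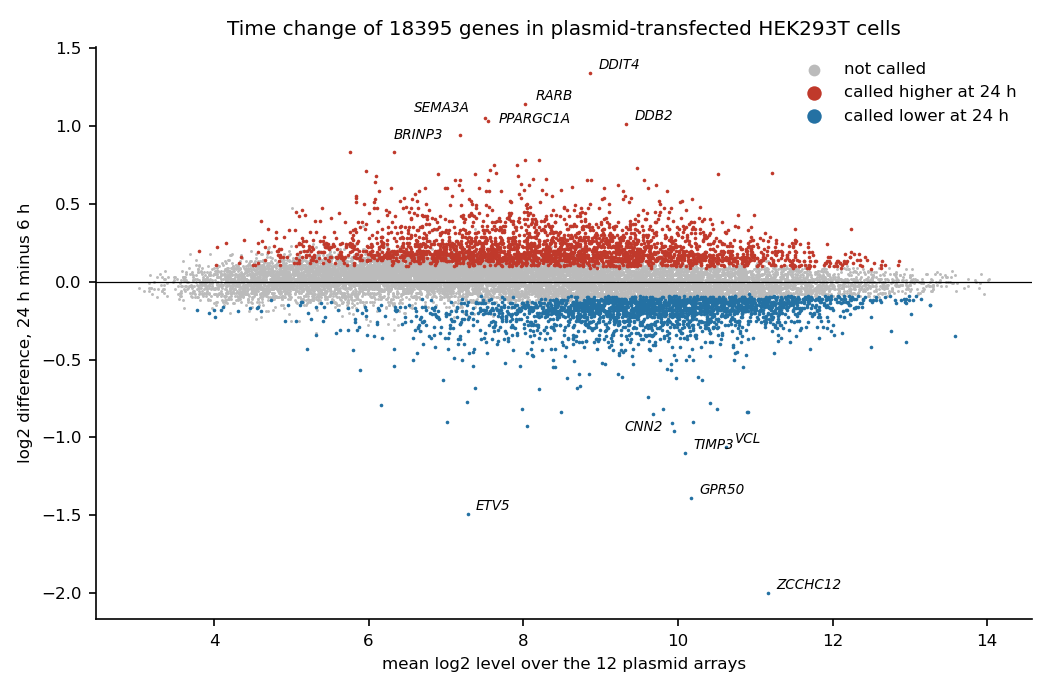
Log2 difference between 24 h and 6 h in the 12 plasmid arrays (y axis) against the mean log2 level over these arrays (x axis), with 1 point for each of 18395 genes. Red points are the 2718 genes called higher and blue points the 2350 called lower, with *ZCCHC12* at −2.0 the lowest and *DDIT4* at 1.34 the highest point.

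The genes with the largest rises, taken among called genes whose 6 arrays did not overlap and whose level at 24 h exceeded 6.0, were *DDIT4*, *RARB*, *SEMA3A*, *PPARGC1A* and *DDB2*, followed by *BRINP3*, *CFAP43*, *NRG4*, *MAP1A*, *IQCH*, *MAP2K6* and *SLC2A12*. *DDIT4*, an inhibitor of the growth kinase complex mTORC1, had log2 levels from 7.98 to 8.42 (median 8.20) on the arrays of 6 h and from 9.38 to 9.62 (median 9.58) on those of 24 h. It rose by 1.34 (SE 0.061, adjusted p = 8.52e-09, n = 12 arrays in limma) or 2.53-fold, the largest rise of all. *RARB*, a nuclear receptor for retinoic acid, went from 7.36 to 7.54 (median 7.47) at 6 h to 8.56 to 8.66 (median 8.58) at 24 h, a rise of 1.14 (SE 0.038, limma adjusted p = 8.98e-10). In both genes the highest array of 6 h lay well below the lowest array of 24 h.

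*SEMA3A*, a secreted guidance cue for growing axons, had levels of 6.77 to 7.20 (median 6.97) at 6 h and 7.86 to 8.26 (median 8.04) at 24 h and rose by 1.05 (SE 0.080). *PPARGC1A*, a coactivator that drives mitochondrial biogenesis, had 6.88 to 7.16 (median 7.05) at 6 h and 7.80 to 8.19 (median 8.13) at 24 h and rose by 1.03 (SE 0.068). *DDB2*, which recognises ultraviolet damage in DNA and is a target of p53, had 8.76 to 8.94 (median 8.84) at 6 h and 9.72 to 10.01 (median 9.81) at 24 h and rose by 1.01 (SE 0.049). These were the only genes besides *DDIT4* and *RARB* that rose by at least 2-fold.

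Smaller rises were seen in *BRINP3* (0.94), *NRG4* (0.83), which encodes a ligand of the receptor ERBB4, *MAP1A* (0.78), a microtubule-associated protein, *IQCH* (0.78), *MAP2K6* (0.75), a kinase that activates p38, and *SLC2A12* (0.75), a glucose transporter. *CFAP43*, a protein of the cilium and sperm flagellum, had 5.28 to 5.41 (median 5.37) at 6 h and 5.90 to 6.41 (median 6.25) at 24 h. It entered the ranking through its level at 24 h, and its level at 6 h was below that of a gene not expressed, so its fitted difference of 0.83 is not a measured size. The adjusted p of the 6 genes other than *CFAP43* lay between 4.38e-07 and 3.91e-06 in limma.

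The genes with the largest falls were *ZCCHC12*, *ETV5*, *GPR50*, *TIMP3* and *VCL*, followed by *CNN2*, *ANXA3*, *ANXA1*, *TRIB1*, *TFPI2*, *ADAMTS1* and *CYP1B1*. *ZCCHC12*, a zinc finger protein, had levels of 11.74 to 12.33 (median 12.22) at 6 h and 9.80 to 10.45 (median 10.16) at 24 h, and changed by −2.0 (SE 0.114, limma adjusted p = 1.07e-07) or 3.99-fold. *ETV5*, an ETS transcription factor induced by fibroblast growth factor and ERK signalling, had 7.75 to 8.33 (median 8.03) at 6 h and 6.21 to 6.73 (median 6.59) at 24 h, a change of −1.49 (SE 0.096). Its level at 24 h came near that of a gene not expressed, so the size of its fall may be understated on this scale. *GPR50*, an orphan receptor related to the melatonin receptors, had 10.49 to 11.09 (median 10.91) at 6 h and 9.26 to 9.68 (median 9.43) at 24 h and changed by −1.39 (SE 0.099).

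Several of the largest falls were in genes of the matrix and of actin. *TIMP3*, an inhibitor of metalloproteinases held in the matrix, had levels of 10.57 to 10.72 (median 10.63) at 6 h and 9.43 to 9.72 (median 9.53) at 24 h and changed by −1.10 (SE 0.045). *VCL*, the focal adhesion protein vinculin, had 11.08 to 11.30 (median 11.14) at 6 h and 10.00 to 10.25 (median 10.09) at 24 h and changed by −1.06 (SE 0.046). *CNN2*, the actin-binding protein calponin 2, had 10.41 to 10.49 (median 10.42) at 6 h and 9.39 to 9.58 (median 9.44) at 24 h and changed by −0.96 (SE 0.038). In none of these genes did the arrays of the 2 times overlap.

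Of the remaining genes, the annexins *ANXA3* and *ANXA1* changed by −0.93 and −0.91, the pseudokinase *TRIB1* by −0.90, the protease inhibitor *TFPI2* by −0.90, the secreted protease *ADAMTS1* by −0.85 and the cytochrome P450 *CYP1B1* by −0.84. Their limma adjusted p lay between 5.9e-09 and 2.36e-05. *FMR1*, at whose locus *FMR4* lies, had levels of 10.43 to 10.53 (median 10.50) at 6 h and 10.24 to 10.42 (median 10.38) at 24 h, a change of −0.13 (SE 0.033, limma adjusted p = 0.009).

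**Figure D2:**
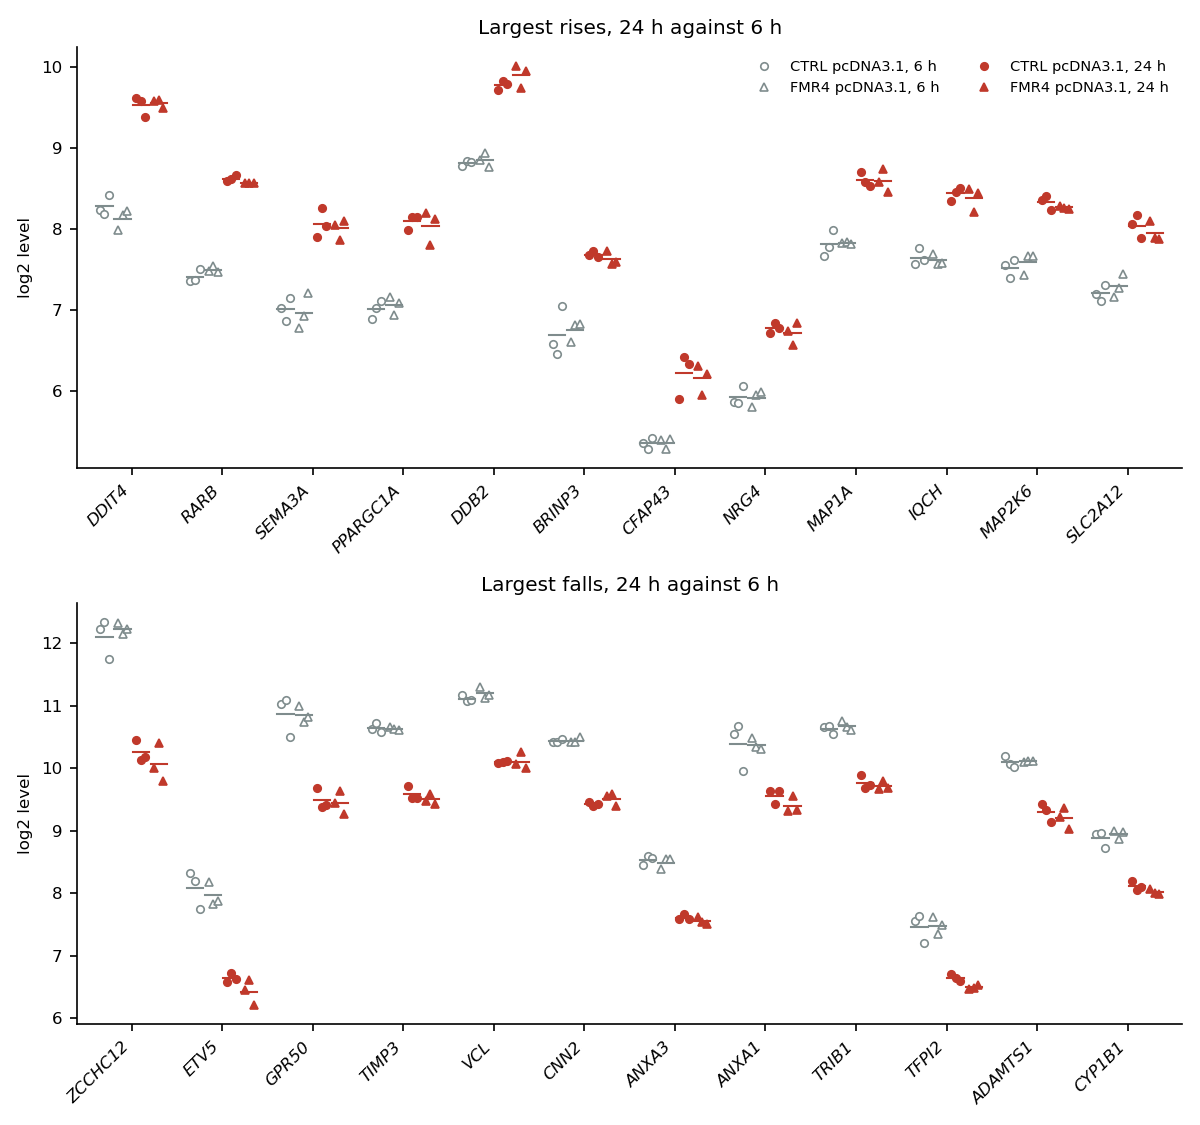
Log2 levels of the 12 genes with the largest rises (upper panel) and the 12 with the largest falls (lower panel). Each point is 1 array, grey and open at 6 h and red and filled at 24 h, circles for CTRL pcDNA3.1 and triangles for FMR4 pcDNA3.1, with bars at the means of 3 arrays. The points of the 2 times do not overlap in any of the genes, as the rule for choosing them required, and both plasmids moved the same way.

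Immediate-early transcription factors fell together. Of 19 measured, 11 fell and 0 rose, with a median difference of −0.17, against 12.8% of all genes falling and a median of 0.02. *JUN*, a subunit of the AP-1 factor, had levels of 11.21 to 11.38 (median 11.30) at 6 h and 10.43 to 10.51 (median 10.46) at 24 h and changed by −0.84 (SE 0.035, limma adjusted p = 3.95e-09). *ATF3*, a stress-induced repressor, had 8.12 to 8.43 (median 8.19) at 6 h and 7.55 to 7.78 (median 7.70) at 24 h, a change of −0.54 (SE 0.055). The list also held falls in *KLF4* (−0.46), *FOS* (−0.43), *FOSB* (−0.37), *MYC* (−0.36), *NR4A2* (−0.34), *EGR1* (−0.31), *NR4A3* (−0.19), *JUNB* (−0.17) and *IER3* (−0.10). The other 8 members, among them *EGR3* (−0.14) and *ZFP36* (−0.13), did not pass the test, and all 19 had a difference below 0. With all 24 arrays in the fit, 8 members fell.

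Of 19 measured targets of SRF and YAP, 10 fell (52.6%, beside 12.8% of all genes) and 1 rose. Their median of −0.21 was the lowest of the 33 lists. Beside *VCL* and *CNN2*, *CCN1*, a matricellular protein and YAP target, had levels of 8.31 to 8.48 (median 8.37) at 6 h and 7.44 to 7.66 (median 7.58) at 24 h and changed by −0.82 (SE 0.040, limma adjusted p = 1.86e-08). *SRF* itself had 11.07 to 11.16 (median 11.12) at 6 h and 10.58 to 10.76 (median 10.64) at 24 h, a change of −0.47 (SE 0.035). Falls were also called in *CCN2* (−0.55), *TPM1* (−0.38), the cytoplasmic actins *ACTG1* (−0.35) and *ACTB* (−0.21), *TGFB2* (−0.32) and *FHL2* (−0.23), and the rise in *AJUBA* (0.22). For all 10 genes that fell the arrays of the 2 times did not overlap, which held for 1272 of the 2350 falls over all genes. *TAGLN*, *MYL9* and *CNN1*, genes of smooth muscle, had differences between −0.01 and 0.09 that did not pass the test.

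The CArG box is the sequence that SRF binds. It was looked for, on both strands, in the 250 bases before the start site of each gene with a RefSeq promoter entry (GRCh38.p14), and 1.61% of the 14240 tested genes with such a window held it. Of the 15 list members with a window, 4 held it, namely *SRF*, *CNN2*, *ACTG1* and *FHL2*, and these 4 were among the 8 of the 15 that fell. Over all 229 tested genes with the box, 16.6% fell and the median difference was 0.01. The stretches around the box are printed because they belong to the actin group that fell most, with the box in capitals and 15 bases on each side where the window reached that far:
*SRF* (chr6:43171224-43171268, + strand): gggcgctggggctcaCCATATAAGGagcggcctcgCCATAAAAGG
*CNN2* (chr19:1026504-1026543, + strand): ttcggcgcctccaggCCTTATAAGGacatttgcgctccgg
*ACTG1* (chr17:81512869-81512908, − strand): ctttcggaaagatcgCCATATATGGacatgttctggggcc
*FHL2* (chr2:105399086-105399125, − strand, the first of its 2 windows with a box): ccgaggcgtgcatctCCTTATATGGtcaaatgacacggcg
The *SRF* window held 2 boxes, the nearer starting 10 bases before the start site, and those of *CNN2* and *ACTG1* started 89 and 94 bases before it. A match is a description of these letters and not a measured binding site.

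Feedback genes of growth factor, NF-kappa-B, TGF-beta and Notch signalling numbered 23, with a median of −0.09. Of them, 9 fell (39.1%, beside 12.8% of all genes) and 3 rose (13%, beside 14.8%). The falls were led by *ETV5* and *DUSP1*, a phosphatase that switches off the MAP kinases, which had levels of 10.52 to 10.71 (median 10.64) at 6 h and 9.82 to 10.17 (median 10.00) at 24 h and changed by −0.63 (SE 0.041, limma adjusted p = 4.38e-07). *SPRED1* (−0.38), *SPRED2* (−0.36), *SPRY4* (−0.26) and *SPRY1* (−0.20), Sprouty-family inhibitors of ERK signalling, fell with the ETS factor *ETV4* (−0.32), the phosphatase *DUSP5* (−0.30) and *ID1* (−0.42). *SKIL* (0.36), *SMAD6* (0.14) and *AXIN2* (0.12) rose. The NF-kappa-B targets *NFKBIA* (−0.06) and *TNFAIP3* (−0.08) did not pass the test.

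Of 21 short-lived regulators of transcription outside that group, 12 fell (57.1%, beside 12.8% of all genes) and 2 rose (9.52%, beside 14.8%). Their median was −0.11. *HEXIM1*, which holds the elongation factor P-TEFb inactive, had levels of 10.03 to 10.26 (median 10.23) at 6 h and 9.44 to 9.73 (median 9.63) at 24 h and changed by −0.57 (SE 0.052, limma adjusted p = 4.46e-06). *RND3* (−0.43), *KLF5* (−0.30) and *SOX4* (−0.27) fell as well, whereas *KLF11* (0.29) and *TOB1* (0.20) rose. In the fit with all 24 arrays 7 members fell.

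Genes of the unfolded protein response of the endoplasmic reticulum also fell, 15 of 23 measured (65.2%, beside 12.8% of all genes). In this list 0 rose, and the median was −0.15. *HSPA5*, the chaperone BiP, had levels of 12.88 to 12.95 (median 12.91) at 6 h and 12.52 to 12.64 (median 12.62) at 24 h, a change of −0.32 (SE 0.033, limma adjusted p = 1.52e-05). *DNAJB9*, a co-chaperone of BiP, had 8.69 to 8.93 (median 8.77) at 6 h and 8.11 to 8.52 (median 8.29) at 24 h and changed by −0.48 (SE 0.057). *CRELD2* (−0.31), *HERPUD1* (−0.29), *DNAJB11* (−0.26), *MANF* (−0.25), *DNAJC3* (−0.25), *SEL1L* (−0.23), *EIF2AK3* (−0.21), *HYOU1* (−0.16), *CALR* (−0.15), *SDF2L1* (−0.15), *HSP90B1* (−0.13), *DERL2* (−0.12) and *PDIA4* (−0.12) fell too. The sensors *ATF6* and *ERN1* (0.01 each) and the factor *XBP1* (−0.04) did not pass the test.

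The ER stress response element, CCAAT followed after 9 bases by CCACG, was found on either strand of the same windows in 0.133% of the tested genes, 19 in number. Of the 22 list members with a window, 7 held it. Of these, *HSPA5*, *CRELD2*, *CALR* and *HSP90B1* fell, and *PDIA6* (−0.07), *XBP1* (−0.04) and *CANX* (0.06) did not pass the test. Of all 19 genes with the element, 5 fell (26.3%), with a median difference of −0.06. Stretches from 3 members that fell and 1 that was not called are shown side by side, with the element in capitals and on the opposite strand in *CRELD2* and *CALR*:
*HSPA5* (chr9:125241376-125241424, − strand): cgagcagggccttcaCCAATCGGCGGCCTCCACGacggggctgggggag
*CRELD2* (chr22:49918539-49918587, + strand): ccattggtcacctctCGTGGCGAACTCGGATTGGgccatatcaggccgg
*CALR* (chr19:12938369-12938417, + strand): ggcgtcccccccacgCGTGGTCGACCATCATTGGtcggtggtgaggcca
*XBP1* (chr22:28800588-28800636, − strand): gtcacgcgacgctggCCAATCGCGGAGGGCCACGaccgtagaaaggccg
The element started 66 bases before the start site in *HSPA5*, 80 in *CRELD2*, 225 in *CALR* and 52 in *XBP1*.

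Of 20 heat shock and cytosolic chaperone genes measured, 7 fell (35%, beside 12.8% of all genes) and 0 rose. Their median was −0.07. *DNAJB1*, the main J-domain partner of inducible HSP70, had levels of 10.92 to 11.05 (median 11.02) at 6 h and 10.59 to 10.76 (median 10.62) at 24 h and changed by −0.35 (SE 0.041, limma adjusted p = 3.88e-05). *DNAJA1* (−0.25), *HSPA1L* (−0.23), *HSF1* (−0.17), *DNAJB6* (−0.16), *BAG3* (−0.11) and *HSPH1* (−0.09) also fell. *HSP90AA1* (−0.01), *HSP90AB1* (0.04) and *HSPD1* (0.01) did not pass the test. The number that fell was 10 with the arrays centred on their medians and 4 with all 24 arrays in the fit. The heat shock element, GAA, TTC and GAA set 2 bases apart on either strand, was found in the promoter windows of 0.513% of the tested genes and in 7 of the 18 members with a window, of which 1, *DNAJB6*, fell. Of all 73 genes with it, 12.3% fell.

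Ribosome biogenesis had the highest share of falling genes of any list, 21 of 30 factors, with 0 rising and a median of −0.18. *RRP12*, needed for the export of pre-ribosomal subunits, had levels of 10.16 to 10.29 (median 10.24) at 6 h and 9.73 to 9.89 (median 9.81) at 24 h, a change of −0.42 (SE 0.038, limma adjusted p = 4.08e-06). *RRS1* (−0.42), *BYSL* (−0.39), *NOP16* (−0.30), *DDX21* (−0.30) and *DKC1* (−0.30), the pseudouridine synthase of H/ACA particles, fell as well. The RNA polymerase I subunits *POLR1A* (−0.17), *POLR1B* (−0.14) and *POLR1C* (−0.24) were among the 21. The E-box CACGTG, bound by MYC among others, was found in the promoter windows of 9.8% of the tested genes, 15.5% of which fell, and in 4 of the 25 list members with a window, of which 3 fell. The abundant nucleolar proteins *NPM1* (−0.01), *FBL* (0.00) and *NCL* (−0.08) did not pass the test. Of 29 proteins of the finished ribosome, 5 fell (17.2%, beside 12.8% of all genes) and 0 rose, with a median of −0.03. *RPL32* (−0.27), *RPS23* (−0.16), *RPS19* (−0.11) and *RPL13* (−0.13) were the falls of lowest p. These genes have many processed pseudogenes, so that their probe sets may read several copies, and in the fit with all 24 arrays 1 member fell, and 2 when CTRL pcDNA3.1 6 h replicate 1 was left out.

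The small RNAs that guide the modification of other RNAs fell with the factors. Of 115 C/D box small nucleolar RNAs, which guide methylation, 41 fell (35.7%, beside 12.8% of all genes) and 0 rose, with a median of −0.10. Of 77 small RNAs that were H/ACA RNAs, which guide pseudouridylation, or Cajal body RNAs, 36 fell (46.8%) and 0 rose. Their median was −0.16. At 24 h, 64 of the 115 and 67 of the 77 had a level above that of a gene not expressed. With CTRL siRNA, on 3 arrays per time rather than 6, 18 of the first kind fell and 2 rose (median −0.07). Of the second kind 22 fell and 1 rose there (median −0.14), beside 8.76% of all genes falling and 9.8% rising. *SNORD14E*, encoded in an intron of *HSPA8*, had levels of 9.81 to 9.90 (median 9.85) at 6 h and 9.25 to 9.57 (median 9.41) at 24 h and changed by −0.44 (SE 0.044, limma adjusted p = 1.21e-05). *SNORD30* (−0.38), *SNORD96A* (−0.39) and *SNORD14C* (−0.32) of the first kind and *SNORA33* (−0.46), *SNORA13* (−0.38), *SNORA6* (−0.35) and *SNORA67* (−0.24) of the second fell too. The host gene *HSPA8* changed by −0.08 (adjusted p = 0.0551). Copies of one snoRNA family are nearly identical, and a probe set inside an intron also reads the unspliced host transcript, so single members are uncertain. With all 24 arrays in the fit 30 and 21 fell, and with centred arrays 50 and 46.

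Of 23 genes of polyamine, nucleotide and one-carbon metabolism, 9 fell (39.1%, beside 12.8% of all genes) and 0 rose. Their median was −0.05. *SAT1*, which acetylates polyamines for export and breakdown, had levels of 10.71 to 11.05 (median 10.94) at 6 h and 9.95 to 10.26 (median 10.09) at 24 h and changed by −0.82 (SE 0.061, limma adjusted p = 1.01e-06). *PPAT* (−0.22) and *CTPS1* (−0.23), of purine and CTP synthesis, and *AMD1* (−0.20), of spermidine synthesis, fell by less.

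In the opposite direction, 16 of 26 genes of the amino acid and integrated stress response rose (61.5%, beside 14.8% of all genes). In the same list 3 fell (11.5%, beside 12.8%), and the median was 0.13. Beside *DDIT4*, *SLC7A11*, the cystine importer, had levels of 10.04 to 10.38 (median 10.15) at 6 h and 10.76 to 10.96 (median 10.87) at 24 h and rose by 0.69 (SE 0.057, limma adjusted p = 2.14e-06). *SESN2*, a leucine sensor upstream of mTORC1, had 9.46 to 9.59 (median 9.50) at 6 h and 9.92 to 10.11 (median 10.03) at 24 h and rose by 0.50 (SE 0.037). *CHAC1* (0.47), which degrades glutathione, *CTH* (0.41), *PCK2* (0.37), *STC2* (0.37), *PSPH* (0.36), *PSAT1* (0.19) and *SHMT2* (0.12) of serine and glycine synthesis, and the factors *ATF4* and *DDIT3* (0.12 each) rose as well. The falls were the amino acid carriers *SLC7A3* (−0.43), *SLC7A1* (−0.28) and *SLC7A5* (−0.15). *ASNS* (0.06), *TRIB3* (0.04) and *PPP1R15A* (0.01), which are usual members of this programme, did not pass the test. Of 19 aminoacyl-tRNA synthetases, 4 rose (21.1%) and 1 fell (5.26%), with *CARS1* (0.30) and *AARS1* (0.22) highest.

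Of 20 genes responsive to glucose and to FOXO factors, 8 rose and 1 fell, with a median of 0.08. *ARRDC3*, an arrestin-domain protein, had levels of 9.05 to 9.17 (median 9.09) at 6 h and 9.74 to 9.97 (median 9.80) at 24 h and rose by 0.73 (SE 0.036, limma adjusted p = 2.17e-08). *TXNIP*, which restrains glucose uptake, had 9.08 to 9.37 (median 9.26) at 6 h and 9.79 to 10.00 (median 9.86) at 24 h and rose by 0.65 (SE 0.058). *SESN1* (0.51), *KLHL24* (0.45), *CCNG2* (0.35), *PDK4* (0.31), *PIK3IP1* (0.15) and *PNRC1* (0.15) rose too, and *ARRDC4* (−0.33) fell, although it shares with *TXNIP* the glucose-responsive factor MondoA. Of 20 glycolysis and glucose uptake genes, 6 fell and 1 rose, among them *HK2* (−0.31), *ALDOC* (−0.29), *SLC2A1* (−0.20) and *PFKFB3* (−0.17). Of 21 hypoxia-response genes, 3 rose (14.3%) and 2 fell (9.52%), near the shares of all genes, 14.8% and 12.8%. *NDRG1*, a stress- and hypoxia-induced gene, fell from 11.10 to 11.43 (median 11.36) at 6 h to 10.36 to 10.70 (median 10.46) at 24 h, a change of −0.84 (SE 0.064), while *BNIP3* (0.27), *HILPDA* (0.18) and *P4HA2* (0.16) rose.

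Of 23 targets of p53, 14 rose (60.9%) and 1 fell (4.35%), beside 14.8% and 12.8% of all genes. Their median of 0.16 was the highest of the 33 lists. The same number, 14, rose with quantile normalization, with centred arrays and with all 24 arrays in the fit. Beside *DDB2* they included the nucleotide excision repair factor *XPC* (0.31), the bypass polymerase *POLH* (0.34), the death receptor *FAS* (0.36), *GDF15* (0.36), *SPATA18* (0.36), *TP53INP1* (0.45), *PHLDA3* (0.30), *AEN* (0.24), *MDM2* (0.16), *BAX* (0.15) and *CCNG1* (0.13), with *SESN1* and *SESN2* shared with the lists above. *FAS* had levels of 7.25 to 7.44 (median 7.33) at 6 h and 7.63 to 7.78 (median 7.70) at 24 h (SE 0.038, limma adjusted p = 1.65e-05). The cell cycle inhibitor *CDKN1A* (0.03) and the death genes *BBC3* (0.08) and *TP53I3* (0.04) did not pass the test, and *PMAIP1* fell by 0.34 on the log2 scale. In all 14 genes that rose the arrays of the 2 times did not overlap, which held for 1381 of the 2718 rises over all genes.

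Of 20 fatty acid and lipid synthesis genes, 11 rose and 1 fell, with a median of 0.14. *ACACB*, the mitochondrial acetyl-CoA carboxylase, had levels of 7.65 to 7.83 (median 7.74) at 6 h and 8.02 to 8.18 (median 8.06) at 24 h and rose by 0.33 (SE 0.037, limma adjusted p = 2.74e-05). The malic enzyme *ME1* (0.28), the desaturases *FADS1* (0.27), *FADS2* (0.21), *SCD5* (0.22) and *SCD* (0.14), the elongase *ELOVL6* (0.27) and *LPIN1* (0.23) rose as well, whereas *FASN* (−0.07), *ACACA* (0.04) and *ACLY* (0.08) did not pass the test and *GPAM* (−0.20) fell. Of 19 sterol and mevalonate genes, 2 rose and 2 fell (10.5% each, beside 14.8% and 12.8% of all genes). *NSDHL* and *SQLE* were at −0.17 each, *MVK* at 0.16 and *TM7SF2* at 0.11. Both rises were lost with all 24 arrays in the fit (limma adjusted p = 0.0509 and 0.255), that of *TM7SF2* also with the replicate block, with centred arrays and without FMR4 pcDNA3.1 6 h replicate 3 or 24 h replicate 3, and with centred arrays 1 rose and 4 fell.

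Genes of DNA replication rose in 14 of 40 cases (35%, beside 14.8% of all genes). They fell in 2 (5%, beside 12.8%), and their median was 0.07. *ORC1*, of the origin recognition complex, had levels of 9.03 to 9.32 (median 9.19) at 6 h and 9.47 to 9.66 (median 9.62) at 24 h and rose by 0.39 (SE 0.051, limma adjusted p = 7.77e-05). *CHAF1B* (0.23), *CDC45* (0.22), *CDT1* (0.21), *POLA1* (0.19), *RFC5* (0.19), *RFC2* (0.19) and *PRIM1* (0.18) rose too. The helicase subunits *MCM2*, *MCM3*, *MCM4* and *MCM6* had differences from 0.01 to 0.09 that did not pass the test, and *MCM5* (0.14) rose while *MCM7* (−0.10) fell. *RRM2*, the small subunit of ribonucleotide reductase, fell by 0.32 on the log2 scale in its probe set of highest mean, but the mean of its probe sets changed by −0.03 (adjusted p = 0.672). The number of replication genes that rose was 20 with quantile normalization, 10 with centred arrays and 8 with all 24 arrays.

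Other cell cycle lists held calls in both directions. Of 24 G1/S regulators 6 rose (25%) and 4 fell (16.7%), beside 14.8% and 12.8% of all genes. *E2F2* (0.32), *E2F8* (0.29) and *RB1* (0.26) rose and *E2F3* (−0.20) fell. Of 38 mitosis genes 7 rose (18.4%) and 5 fell (13.2%), near the shares of all genes. *HMMR* (0.41), *CDC25C* (0.29) and *NDC80* (0.26) rose while the kinase *AURKB* (−0.18) fell. The mitosis counts became 12 and 5 with quantile normalization and 3 and 8 with centred arrays, so their balance turns with the scaling, and 3 rose when CTRL pcDNA3.1 6 h replicate 1 was left out. Of 56 replication-dependent histone genes, 5 rose and 11 fell, with a median of 0.00. *H2AC12* and *H2BC21* fell by 0.34 on the log2 scale and *H1-3* rose by 0.29. *H2AC15* had the largest rise of the list, 0.70 (SE 0.155, limma adjusted p = 0.00416), with arrays that overlapped between the times. The coding sequences of histone copies are close to each other and single members are uncertain.

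**Figure D3:**
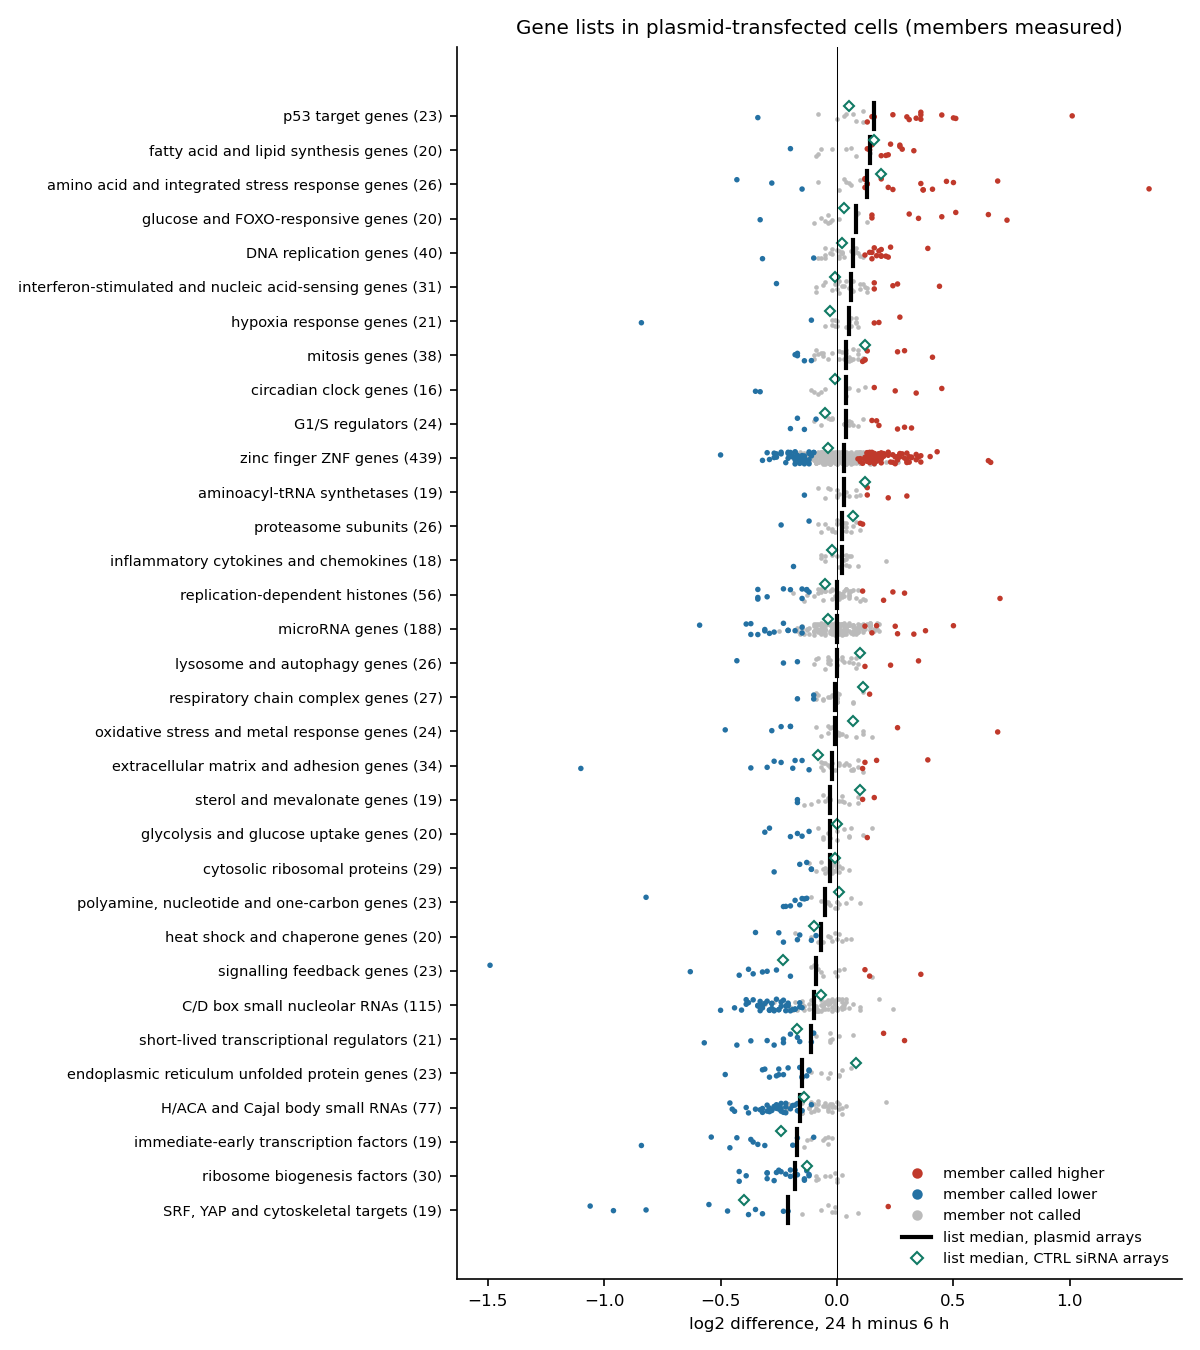
Log2 differences between 24 h and 6 h of the members of 33 gene lists in the plasmid arrays, 1 point per gene and lists ordered by their median, with the number of members measured in brackets. Red points were called higher, blue lower and grey not called, black bars are list medians and open diamonds the medians of the same lists in CTRL siRNA arrays. Medians run from −0.21 for SRF and YAP targets to 0.16 for p53 targets.

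The remaining lists are set beside the shares of all genes, 14.8% rising and 12.8% falling. Interferon-stimulated and nucleic acid-sensing genes, which transfected DNA can induce, had 5 of 31 rising and 1 falling. *IFIT1* had levels of 5.59 to 5.93 (median 5.80) at 6 h and 5.92 to 6.42 (median 6.25) at 24 h, overlapping by a narrow margin. It was called higher, by 0.44 (SE 0.067, limma adjusted p = 0.000302). All its levels at 6 h were below that of a gene not expressed, so this difference is not a measured size. *IFI44L* (0.26) and *DDX60* (0.24) rose at levels below that of a gene not expressed, and *IFI6* (−0.26) fell from a level of 9.67. With dim probe sets removed, 2 of the list rose. *IFNB1* (0.07), *CGAS* (0.13), *MX1* (0.06) and *ISG15* (0.11) did not pass the test, and *STING1* and *IFIH1* rose by 0.16 each. Of 18 inflammatory cytokines and chemokines, *CXCL8* alone was called and fell, from a range of 6.88 to 7.11 at 6 h to 6.64 to 6.98 at 24 h, which overlap (−0.19, limma adjusted p = 0.0168).

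Proteasome subunits had 2 of 26 rising and 2 falling, respiratory chain genes 1 of 27 rising and 3 falling, and lysosome and autophagy genes 3 of 26 in each direction. These balances turned with the scaling, since the proteasome counts were 5 and 1 with quantile normalization and 0 and 4 with centred arrays, and with centred arrays 0 respiratory chain genes rose and 7 fell, and 2 lysosome genes rose and 6 fell. Without CTRL pcDNA3.1 6 h replicate 1 only 1 proteasome gene rose, without FMR4 pcDNA3.1 6 h replicate 3 it was 4, and without the latter 1 respiratory chain gene fell. In the lysosome list, *GLA*, a lysosomal galactosidase, fell by 0.43 on the log2 scale (SE 0.035) and *GABARAPL1*, an autophagosome protein, rose by 0.35 (SE 0.046). The oxidative stress and metal response list had 2 of 24 rising and 5 falling, with 4 rising when FMR4 pcDNA3.1 24 h replicate 2 was left out, and *HMOX1*, heme oxygenase, at −0.48 and *MT1X*, a metallothionein, at −0.28. Extracellular matrix and adhesion genes had 4 of 34 rising and 9 falling, with 2 rising when CTRL pcDNA3.1 6 h replicate 1 was left out. Fibronectin (*FN1*) changed by −0.37 and *NID2* by −0.24, and the protocadherin *PCDH18* rose by 0.39. Of 16 clock genes 4 rose and 2 fell, *DBP* by 0.45 upward and *PER2* and *CRY1* by −0.35 and −0.33, but the counts were 4 and 5 with quantile normalization and 3 and 5 with centred arrays. Of 439 *ZNF* genes 72 rose and 45 fell, led in p by *ZNF711* (−0.50), *ZNF827* (0.36), *ZNF627* (0.66) and *ZNF362* (0.40). With centred arrays the counts were 43 and 63. In the marker list of the line itself, *NEFM*, a neurofilament subunit, fell by 0.78 on the log2 scale and *NEFL* by 0.20, and *KRT8* (0.18), *PAX2* (0.14) and *CDH2* (0.11) rose.

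Of 188 microRNA genes and their host transcripts, 8 rose (4.26%) and 15 fell (7.98%), both below the 14.8% and 12.8% of all genes. At 24 h, 82 of the 188 had a level above that of a gene not expressed. Leaving out CTRL pcDNA3.1 6 h replicate 1 gave 4 that rose, and leaving out FMR4 pcDNA3.1 24 h replicate 1 gave 16. Their probe sets read the precursor or primary transcript and not the mature molecule. *MIR221* had levels of 9.34 to 9.74 (median 9.50) at 6 h and 8.79 to 9.18 (median 8.90) at 24 h and changed by −0.59 (SE 0.067, limma adjusted p = 2.89e-05). *MIR222*, its neighbour on the X chromosome, had 8.16 to 8.50 (median 8.31) at 6 h and 7.74 to 8.06 (median 7.94) at 24 h and changed by −0.39 (SE 0.067). The arrays of the 2 times did not overlap in either. Of the 23 called genes, 18 had a mature sequence in RefSeq (GRCh38.p14). The 3p forms of the pair share their seed, bases 2 to 8 in capitals, and so do the 5p forms of *MIR15A* (−0.21) and *MIR15B* (−0.27), whereas *MIR503* (−0.34) differs from the latter in the last base of its seed:
hsa-miR-221-3p: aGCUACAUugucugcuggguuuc
hsa-miR-222-3p: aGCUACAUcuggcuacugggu
hsa-miR-15a-5p: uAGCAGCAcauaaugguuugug
hsa-miR-15b-5p: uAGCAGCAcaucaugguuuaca
hsa-miR-503-5p: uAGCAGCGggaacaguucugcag
hsa-miR-181b-5p: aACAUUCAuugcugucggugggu
*MIR181B1* rose, from 7.43 to 7.67 (median 7.57) at 6 h to 7.81 to 8.03 (median 7.96) at 24 h, by 0.38 (SE 0.047). *MIR181A2*, whose 5p form has the same seed as that of *MIR181B1*, went the other way and fell (−0.15, limma adjusted p = 0.0354). Genes with a shared seed thus did not always change in the same direction. The host transcripts *MIR503HG* (−0.37) and *MIR17HG* (−0.23) fell. The miR-15 and miR-503 family is known to restrain cyclins, and miR-221 and miR-222 the inhibitor *CDKN1B*, whose own transcript changed by −0.04 and did not pass the test.

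The empty vector and the *FMR4* plasmid gave time changes that did not differ in any gene past the threshold. Within CTRL pcDNA3.1, 1395 genes rose (7.58%) and 866 fell (4.71%), and within FMR4 pcDNA3.1, 1180 rose (6.41%) and 1275 fell (6.93%). Either direction together made up 12.3% and 13.3% of the genes. Of these, 817 genes rose and 696 fell within both plasmids. The difference between the 2 plasmids' time changes was called in 0 genes by limma, with 563 genes at an unadjusted p under 0.05, and in 0 genes in each alternative fit. The genes with the lowest p of that difference were *CCR2*, *OR56A3* and *AGMO* in one direction and *PCDHA4*, *DCSTAMP* and *ARHGAP5-AS1* in the other, with changes of −0.18 and 0.36 for *CCR2* and 0.30 and −0.22 for *PCDHA4* in CTRL pcDNA3.1 and FMR4 pcDNA3.1. With 3 arrays per plasmid and time, small differences between the plasmids may have been missed.

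CTRL siRNA arrays were used to ask which of the time changes were also seen with another nucleic acid and reagent. There, 1802 genes rose (9.8%) and 1611 fell (8.76%) between 6 and 24 h in the fit of all 24 arrays, or 18.6% in either direction. With FMR4 siRNA, whose arrays entered that fit, 2262 rose (12.3%) and 805 fell (4.38%), or 16.7%. The plasmid change exceeded the CTRL siRNA change in 463 genes (2.52%) and fell short of it in 335 (1.82%), by a test of the difference itself, 4.34% of genes together. In 356 of these 798 genes only the siRNA change was called, in 224 only the plasmid change, in 211 both and in 7 neither. There were 86 genes that rose with plasmid and fell with siRNA and 41 that did the reverse. The counts of 463 above and 335 below moved by over 1.5 times with single arrays of either kind. Without CTRL siRNA 6 h replicate 3 they were 124 and 85, and in a fit of only the 18 arrays compared, without the widely spread FMR4 siRNA arrays, they were 1379 and 1197.

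The leading genes of the plasmid arrays had a difference of the same sign with CTRL siRNA in all but *IQCH*, and 5 of the 24 had a called difference between the time changes. The CTRL siRNA arrays changed by 0.97 for *DDIT4*, 1.10 for *RARB*, 0.95 for *SEMA3A*, −1.49 for *ZCCHC12*, −1.81 for *GPR50*, −1.71 for *TIMP3*, −1.27 for *VCL* and −1.06 for *CNN2*, and the test of the difference was not passed for any of these 8, which does not show that the changes were equal. It was passed for *PPARGC1A*, which rose by 0.39 with siRNA and 1.03 with plasmid (difference 0.64, adjusted p = 0.00979), for *DDB2*, which rose by 0.47 and 1.01 (difference 0.54, adjusted p = 0.00684), and for *CFAP43* and *IQCH*, whose siRNA changes of 0.03 and −0.07 were not called. Among the falls it was passed for *CYP1B1*, with −0.12 with siRNA and −0.84 with plasmid (difference −0.72, adjusted p = 0.00192), and for *JUN*, with −0.25 and −0.84 (difference −0.59, adjusted p = 0.00286).

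The lists are set beside all genes, of which the difference was called in 4.34%, above the siRNA change in 2.52% and below it in 1.82%. With CTRL siRNA, 9.8% of all genes rose and 8.76% fell. Those calls rest on 3 arrays per time and the plasmid calls on 6, so counts of calls are not on an equal footing. By lists, the ER genes had a median change of 0.08 with CTRL siRNA, where 4 rose and 0 fell, against −0.15 with plasmid, where 0 rose and 15 fell. The difference itself was called in 5 of the 23, all below the siRNA change, and *HSPA5* (difference −0.42, adjusted p = 0.012) and *DNAJB9* (difference −0.69, adjusted p = 0.0295) were among them. Of the p53 targets, 7 rose and 3 fell with siRNA, with a median of 0.05, and the difference was called in 2. SRF and YAP targets had a median of −0.40 with siRNA, where 12 of 19 fell, and the difference was called in 4, all with the plasmid change above the siRNA change (*CCN2*, *THBS1*, *FHL2* and *AJUBA*). The median changes of ribosome biogenesis factors were −0.13 with siRNA and −0.18 with plasmid. Their difference was called in 0 of the 30, which does not show that the changes were equal.

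**Figure D4:**
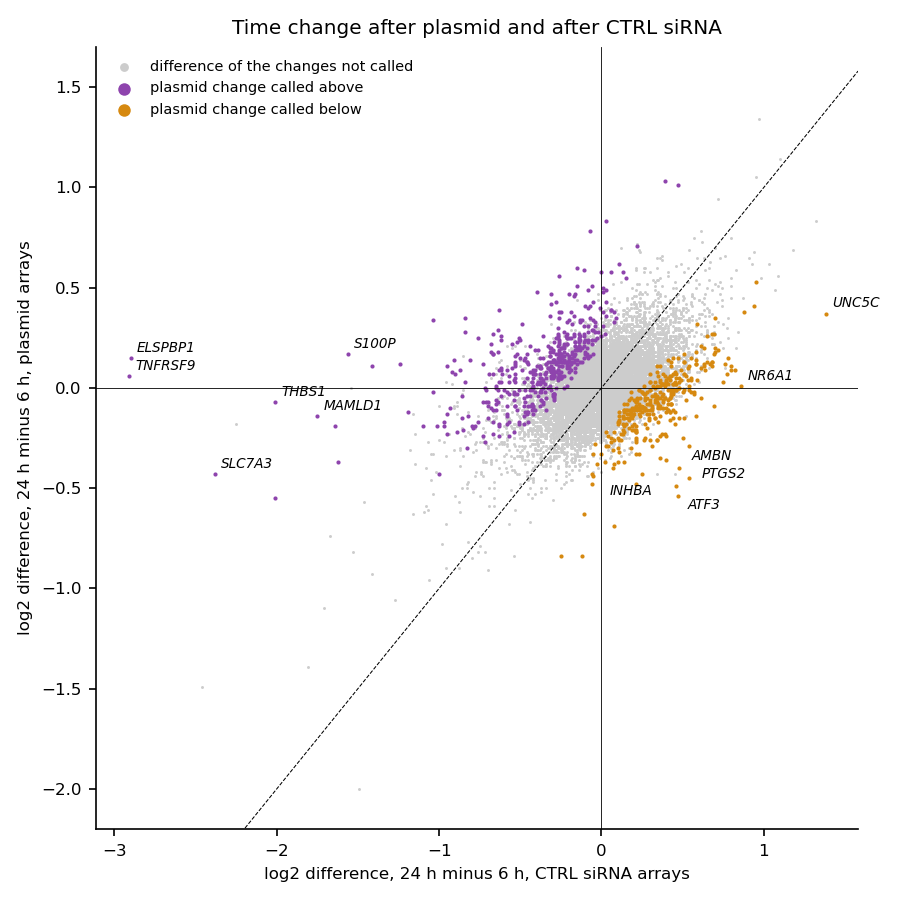
Log2 difference between 24 h and 6 h in plasmid arrays (y axis) against that in CTRL siRNA arrays (x axis) for 18395 genes, with the line of equal change dashed. Purple points are the 463 genes whose plasmid change lay above the siRNA change and orange points the 335 below it, and *ELSPBP1* and *TNFRSF9*, at −2.90 and −2.91 with siRNA and 0.15 and 0.06 with plasmid, lie farthest from the line.

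The 12 genes of largest difference between the 2 time changes, 6 in each direction, are given by array. *ELSPBP1*, *TNFRSF9*, *SLC7A3*, *THBS1*, *S100P* and *MAMLD1* were higher on all 3 CTRL siRNA arrays of 6 h than on any plasmid array of either time. The call of the difference was lost for *SLC7A3*, *S100P* and *MAMLD1* without CTRL siRNA 6 h replicate 3 (adjusted p = 0.0735, 0.111 and 0.101 in limma). *TNFRSF9*, a receptor of the tumour necrosis factor family, had levels of 9.50, 9.76 and 10.53 on the 3 CTRL siRNA arrays of 6 h and 7.02, 7.0 and 7.04 on those of 24 h, whereas the plasmid arrays lay between 7.02 and 7.40 at either time, a plasmid change of 0.06. *SLC7A3*, a cationic amino acid carrier, had 10.14, 10.25 and 10.81 on the CTRL siRNA arrays of 6 h and 8.18, 7.62 and 8.24 on those of 24 h, and the plasmid arrays 8.42 to 8.82 at 6 h and 8.06 to 8.37 at 24 h. The FMR4 siRNA arrays of 6 h were themselves spread, and *TNFRSF9* had levels of 7.23, 9.30 and 11.06 on their replicates 1, 2 and 3, the first in the range of the plasmid arrays.

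In the opposite direction, *ATF3*, *PTGS2*, *INHBA* and *AMBN* fell with plasmid by 0.54, 0.45, 0.49 and 0.40 on the log2 scale, and had siRNA changes of 0.47, 0.54, 0.46 and 0.48, of which that of *AMBN* was called. *PTGS2*, the inducible cyclooxygenase, had 7.44 to 7.65 (median 7.59) at 6 h and 6.99 to 7.28 (median 7.12) at 24 h with plasmid, and 7.48, 7.65 and 7.71 at 6 h and 8.32, 7.49 and 8.65 at 24 h with CTRL siRNA, replicate 2 of 24 h lying in the range of 6 h. Without CTRL siRNA 24 h replicate 3 the call of the difference was lost for *PTGS2* (limma adjusted p = 0.0828) and *INHBA* (0.058), and without CTRL siRNA 6 h replicate 3 for *UNC5C* (0.092). *UNC5C*, a netrin receptor, rose with both, by 0.37 with plasmid and 1.38 with siRNA. *NR6A1*, a nuclear receptor, was level over time with plasmid (0.01) and rose by 0.86 with siRNA. The plasmid and siRNA arrays differ in nucleic acid, reagent and dose at once, and their parts cannot be told apart.

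**Figure D5:**
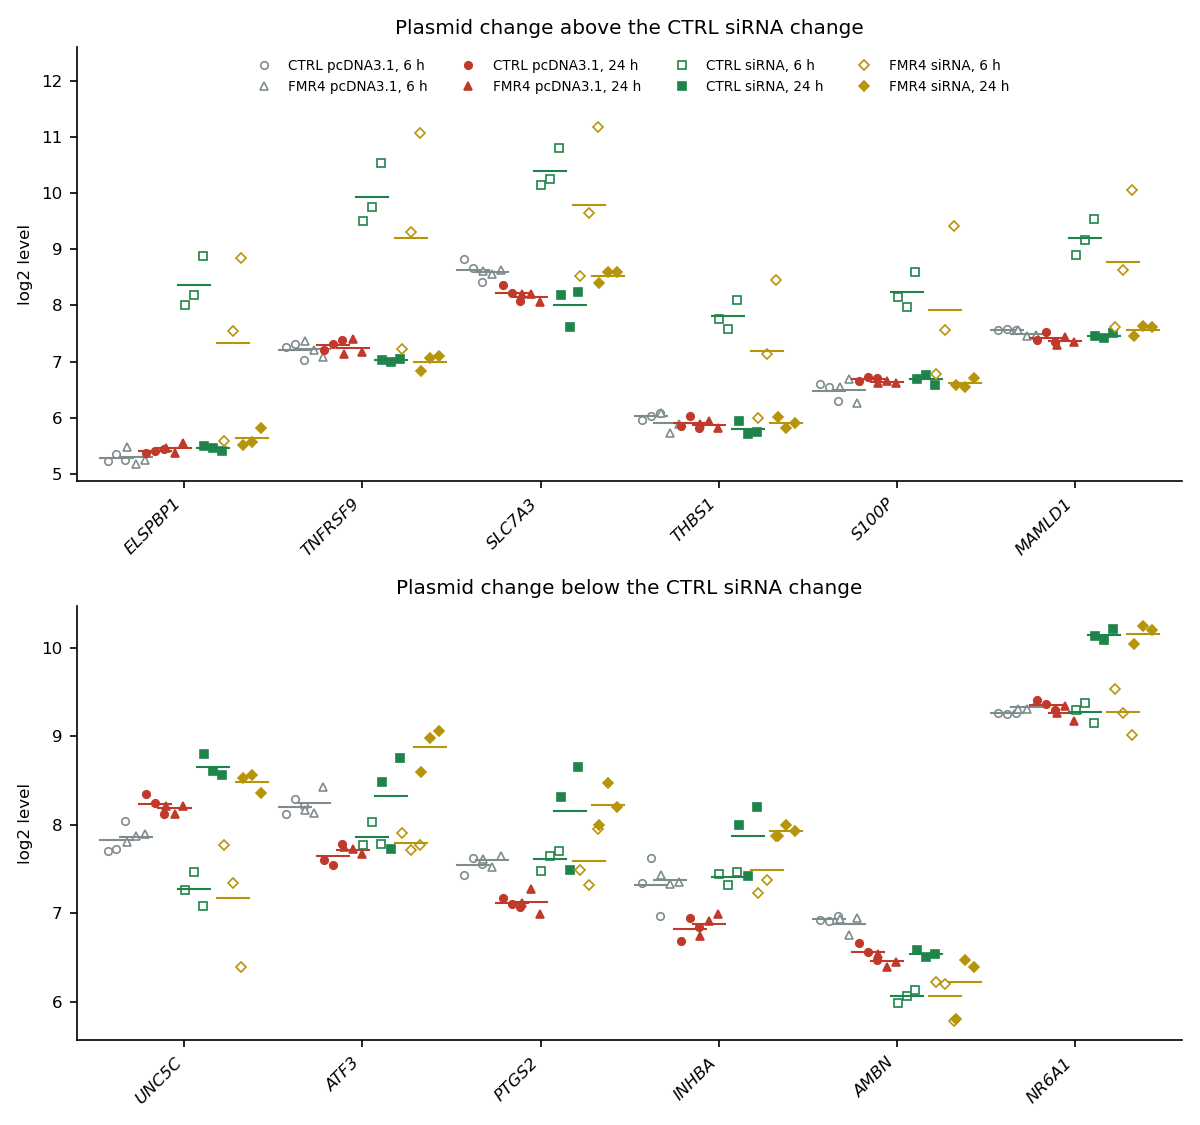
Log2 levels of the 12 genes with the largest difference between the time changes, 6 with the plasmid change above the CTRL siRNA change (upper panel) and 6 below it (lower panel). Each point is 1 array, open at 6 h and filled at 24 h, in grey and red for the plasmids, green for CTRL siRNA and yellow for FMR4 siRNA, with bars at the means of 3 arrays. In the upper panel the CTRL siRNA arrays of 6 h stand above all plasmid arrays.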

How the data were processed

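RNA of HEK293T cells was hybridised to Affymetrix Human Gene ST arrays, version 1.0 per the labels and 2.0 in the paper. The authors subtracted background and normalized with GC-RMA, and deposited their log2 values (2.62 to 14.5, with array medians of 7.43 to 7.53). GC-RMA stands in the submitters' processing notes with no version, and the build is not given in the sources used here. The number of arrays limits the precision.

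Of 33297 probe sets, 12083 without a gene in the array annotation were left out, and 1754 with several symbols were tested but not counted, which leaves 18395 genes, 788 of them with more than 1 probe set. Symbols of 27 probe sets were updated through RefSeq. The 12 plasmid arrays were fitted with plasmid and time (limma 3.58.1 in R 4.3.3, 9 residual degrees of freedom, a median of 14 after moderation). CTRL siRNA arrays entered a fit of all 24 with 1 mean per group. All p-values were two-sided and adjusted by Benjamini-Hochberg over the 21214 probe sets with a gene. The fit was tested on simulated data.

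Members and the 33 lists were chosen with earlier results of these data known. Named are the 12 largest rises and falls, up to 4 called members per list, 6 per direction for the siRNA comparison and 3 per direction between plasmids, with other members of lists described whole. Alternatives were the arrays fitted, a replicate block, moderation with trend, array weights, dim probe sets, scaling, probe sets, thresholds and each array left out. Figures used matplotlib 3.10.9.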

Additional observations from a re-analysis of the deposited data

Results flagged for a closer look

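For 12 genes the change from 6 to 24 h differed between plasmid and CTRL siRNA arrays by limma's test of the difference itself, given as the plasmid change minus the siRNA change. They are the largest in each direction, and each passed an adjusted p under 0.05. The difference was 3.05 for *ELSPBP1*, 2.97 for *TNFRSF9*, 1.95 for *SLC7A3*, 1.94 for *THBS1*, 1.74 for *S100P* and 1.6 for *MAMLD1*. In the other direction it was −1.01 for *UNC5C*, −1.01 for *ATF3*, −0.99 for *PTGS2*, −0.95 for *INHBA*, −0.88 for *AMBN* and −0.85 for *NR6A1*. The test was lost in at least 1 fit without a single CTRL siRNA array for *SLC7A3* (adjusted p = 0.0735 without 6 h replicate 3), *S100P* (0.111 without 6 h replicate 3, and above 0.05 also without 6 h replicate 1, 24 h replicate 1 or 24 h replicate 3), *MAMLD1* (0.101 without 6 h replicate 3, and above 0.05 without each array of 24 h), *UNC5C* (0.092 without 6 h replicate 3, and above 0.05 without 6 h replicate 1 or 24 h replicate 1), *PTGS2* (0.0828 without 24 h replicate 3, and above 0.05 without 6 h replicate 1 or 3 or 24 h replicate 1) and *INHBA* (0.058 without 24 h replicate 3).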

How the results depend on the processing

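The test of the plasmid arrays over time rested on 12 arrays. Of 156 called values of named genes, 22 lost the call in at least 1 alternative other than a stricter threshold and 0 changed direction. Those lost are differences of at most 0.17 in size, besides *RRM2*, *H1-3*, *SLC7A3*, *S100P*, *MAMLD1*, *UNC5C*, *PTGS2* and *INHBA*. The cause of these losses was not tested. Over the 12 arrays, an adjusted p under 0.01 left 1589 genes higher and 1403 lower, a change of at least 1.5-fold 48 and 34, and the fit of all 24 arrays 1838 and 1509. Leaving out 1 array gave 2213 to 2765 higher and 1925 to 2449 lower. The labels do not say whether arrays of the same replicate number at the 2 times were paired. The correlation of same-numbered deviations lay between −0.15 and −0.04 in CTRL pcDNA3.1 and between −0.20 and 0.10 in FMR4 pcDNA3.1. With 3 arrays per group, these values cannot decide it. With the replicate block 2408 genes were higher and 1989 lower.

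Within CTRL pcDNA3.1 the counts were 705 and 355 with all 24 arrays, 960 and 519 with the replicate block, 820 and 1542 with centred arrays, and 671 to 1208 and 408 to 895 when 1 array was left out, the lowest without 6 h replicate 1, with 6 h replicate 2 and 24 h replicates 2 and 3 also moving a count by over 1.5 times. Within FMR4 pcDNA3.1 they were 607 and 558 with all 24 arrays, 808 and 778 with the replicate block, and 656 to 896 and 544 to 979 when 1 array was left out, the lowest without 24 h replicate 3, with 6 h replicates 1 and 3 also moving a count so far. CTRL siRNA counts rose to 2778 higher with array weights and were 945 to 1863 and 905 to 1412 when 1 array was left out, the lowest without 6 h replicate 3, with 24 h replicates 1 and 2 also moving a count so far.

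The difference between plasmid and CTRL siRNA moved most. It was called above and below in 1379 and 1197 genes with only the arrays compared, 251 and 143 with the replicate block, 1698 and 1494 with array weights, 302 and 701 with centred arrays, and 124 to 475 and 85 to 526 when 1 array was left out. Without FMR4 siRNA 6 h replicate 1 in the shared spread, an alternative chosen after seeing the data, it was 746 and 659. Beside CTRL siRNA 6 h replicate 3 (124 and 85), the arrays that moved it most were CTRL siRNA 6 h replicate 1 (207 and 121), 24 h replicate 1 (213 and 107) and 24 h replicate 3 (183 and 110), and at least 1 of its counts moved by over 1.5 times without CTRL siRNA 6 h or 24 h replicate 2, CTRL pcDNA3.1 6 h replicate 1 or 3 or 24 h replicate 2 or 3, and FMR4 pcDNA3.1 6 h replicate 2 or 3 or 24 h replicate 1 or 3. The count of 0 between plasmids was 0 in each alternative.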

Other observations

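Gene families of motile cilia were chosen after their values were seen. In the families of cilia- and flagella-associated proteins, axonemal dynein chains, dynein regulatory complex, outer arm docking complex, dynein assembly factors and radial spoke heads, 34 of 94 measured genes rose and 1 fell between 6 and 24 h, with a median of 0.11, beside 14.8% rising and a median of 0.02 over all genes. With CTRL siRNA 16 of the 94 rose and 3 fell, with a median of 0.02, where 9.8% of all genes rose and 8.76% fell. The siRNA calls rest on 3 arrays per time and the plasmid calls on 6, so their counts are not on an equal footing. The difference of the time changes was called in 6, beside 4.34% of all genes. By family, 14 of 46 cilia- and flagella-associated proteins, 8 of 18 axonemal dynein chains, 3 of 11 dynein regulatory complex genes, 3 of 4 docking complex genes, 5 of 9 assembly factors and 1 of 6 radial spoke heads rose. Of the 94 genes, 68 had a mean at 24 h above the level of a gene not expressed. The RFX factors, known regulators of cilia genes, rose in 4 of 8 cases, with a median of 0.10, and in 4 of 8 with CTRL siRNA. The intraflagellar transport genes, which all ciliated cells use, rose in 2 of 18 cases with plasmid, where 1 fell, and in 10 of 18 with CTRL siRNA. The difference of the time changes was called in 1 of these 18 and in 0 of the 8 RFX factors.

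By RefSeq class, 79 of 632 long non-coding RNA genes rose (12.5%) and 24 fell (3.8%), both below the 14.8% and 12.8% of all genes. Of 20 small nuclear RNA genes 7 fell (35%) and 0 rose, and of 3 vault RNA genes 2 fell and 0 rose.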
